A study of Homo sapiens with 8 samples.

Results

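The family of the hairpins miR-28, miR-151a and miR-708 was examined in small RNA libraries of 786O cells, an established line from a human clear cell renal cell carcinoma (ccRCC). Its members were taken by name from the count table, as hsa-miR-28-5p, hsa-miR-28-3p, hsa-miR-151a-5p, hsa-miR-151a-3p, hsa-miR-708-5p and hsa-miR-708-3p, written without hsa below. All 6 were listed, among 3112 entries, of which 1482 were known and 1630 predicted miRNAs. The libraries were 4 of cells that received an shRNA against the circular RNA circSOD2 (circSOD2-sh) and 4 of cells with a control plasmid (NC). The sample labels describe plasmid transfection with Lipofectamine 3000 and extraction of RNA after 48 h, whereas the methods of the study describe lentiviral infection and puromycin selection. Which shRNA was used is not named, circSOD2 itself was not measured in these libraries, and nothing says whether replicates were separate cultures, so that p-values describe the spread between these libraries only.

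A miRNA hairpin is cut by Drosha and Dicer into a duplex of a 5p and a 3p arm. Either arm can be loaded into an Argonaute protein, where its seed, bases 2 to 8, pairs with target RNAs. The hairpins of this family are related in sequence, descend from LINE-2 transposable elements and lie in introns of LPP, a protein of focal adhesions, PTK2, which encodes focal adhesion kinase, and TENM4, a teneurin of neurons. In cells with loss of VHL, the tumour suppressor gene lost in most clear cell renal carcinomas, miR-28-5p is known to repress the spindle checkpoint protein MAD2. With its host kinase, miR-151a-5p has been linked to cell migration through repression of RhoGDIA. In renal cancer cells, miR-708 has been described as promoting apoptosis.

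Of the 6 members, mature sequences of 3 were taken from RefSeq (GRCh38.p14), without those of miR-28-5p and miR-151a. They are shown because the seed, in capitals, decides which members can be added together below. Sequences run 5′ to 3′.
miR-28-3p: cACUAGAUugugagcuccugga
miR-708-3p: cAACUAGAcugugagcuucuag
miR-708-5p: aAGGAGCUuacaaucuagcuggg
The 3p arms of miR-28 and miR-708 were identical at 18 of 23 aligned positions (78.3%). They differed by the substitutions U8C, C17U and G20A, counted from the 5′ end of miR-28-3p. The last base of miR-28-3p had no partner, and there was a shift of 1 base near the start. Because of this shift the run acuaga stands at bases 2 to 7 of miR-28-3p and at bases 3 to 8 of miR-708-3p. Their seeds are therefore different, and neither seed was found in any other of 2370 mature miRNAs of the table. The seed of miR-708-5p, which miR-28-5p is known to share, was found in 1 further miRNA, miR-3139, which had at most 0.178 normalized CPM in any library here.

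In GENCODE release 29 on GRCh38, MIR28 lies on chromosome 3 from 188688781 to 188688866 on the plus strand, within LPP. MIR151A lies on chromosome 8 from 140732564 to 140732653 on the minus strand, within PTK2. MIR708 lies on chromosome 11 from 79402022 to 79402109 on the minus strand, within TENM4. Each hairpin is on the strand of its host and overlaps no exon of it. Messenger RNA of the hosts was not measured here.

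The NC libraries held 6386872 to 9245044 counts and the circSOD2-sh libraries 3743860 to 4208276. Of these, known miRNAs made up 36.2% to 41.9% in NC but 95.1% to 96.5% under circSOD2-sh. The scaling of libraries therefore weighs on every comparison of levels. Levels are given as normalized CPM, the CPM of a library total rescaled by TMM (trimmed mean of M-values), and tests are quasi-likelihood tests of edgeR adjusted over all 895 miRNAs left by a low-count filter, with a threshold of 0.05. A read covers a whole mature miRNA, so no correction for length was made to set arms side by side. How evenly different sequences were captured was not measured, so ratios between arms or members are ratios of reads. NC replicate 4 and circSOD2-sh replicate 2 stood apart. The stromal miRNAs miR-143-3p and miR-145-5p summed to 537.2 normalized CPM in the former and 218.9 in the latter, against 7.08 to 12.4 in the other 6 libraries. The neural miRNAs miR-124-3p, miR-9-5p and miR-9-3p summed to 4316 normalized CPM in circSOD2-sh replicate 2, against 32.1 to 45.6 elsewhere. Other markers were raised in the same libraries, with endothelial miR-126 at 650.7 and 511 against 262 to 348 and the leukocyte list at 17.1 and 14.7 against 1.19 to 3.21. The kidney tubule miRNAs summed to 291 to 389 in 7 libraries and to 1046 in NC replicate 4, with miR-204-5p listed at 0 in 2 NC libraries.

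Both arms of miR-151a and both arms of miR-28 were well expressed, and 3 of these 4 were lower in circSOD2-sh relative to the bulk of miRNAs. The fall was 34.3% for miR-28-3p, 18.5% for miR-151a-5p and 18.6% for miR-151a-3p, and the change of miR-28-5p did not pass the test. Both arms of miR-708 were close to the limit of detection in all libraries but 1. Of the 6 members, 4 passed the low-count filter, so that these 3 were 3 of 4 tested, and none was higher. Over all miRNAs tested, 65.7% differed between the groups, 32.4% being lower and 33.3% higher in circSOD2-sh, so a change as such does not set the family apart. The order of the members by level was the same in each library, with miR-151a-5p first, then miR-151a-3p, miR-28-3p, miR-28-5p and the arms of miR-708. Levels of neighbours in this order did not overlap across libraries, except those of the arms of miR-708.

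The direction of these falls rests on the scaling. When libraries were scaled by their totals instead, the median log2 fold change over all miRNAs tested moved from -0.0021 to 0.963, and all 4 arms then had positive log2 fold changes. Values of 0.84 for miR-28-5p, 0.68 for miR-151a-5p, 0.67 for miR-151a-3p and 0.36 for miR-28-3p resulted, each with an adjusted p-value under 0.05. The CPM deposited by the authors, which divide by a larger total than the listed counts, were also higher in circSOD2-sh, as the mean of miR-28-3p was 566 ± 57.5 CPM in NC and 658 ± 31.7 CPM in circSOD2-sh (SD, n = 4 each). Relative to the median of all miRNAs, the change of miR-28-3p was -0.60 with both scalings, that of miR-151a-5p -0.29 with both, and that of miR-28-5p -0.13 with both. A change of scaling shifts all miRNAs by nearly the same amount. This likeness therefore follows from subtracting the median and is no separate evidence. The distance from the median was smaller when fewer miRNAs entered. With a mean of at least 50 counts it was -0.37 for miR-28-3p, -0.060 for miR-151a-5p and -0.064 for miR-151a-3p, and with known miRNAs alone it was -0.47, -0.16 and -0.16. For miR-151a-5p it was -0.17 without circSOD2-sh replicate 2.

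**Figure D1:**
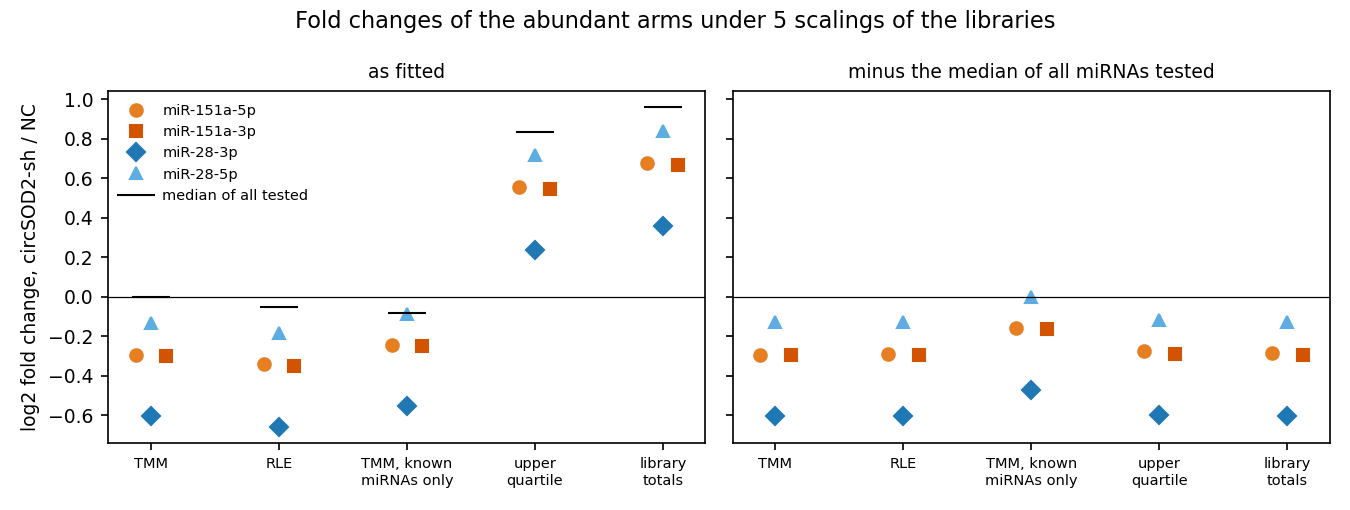
Log2 fold change of circSOD2-sh over NC (vertical axis) for the 4 abundant arms under 5 scalings of the libraries (horizontal axis), as fitted (left) and after subtracting the median of all miRNAs tested (right, same axis). The arms lie below 0 with TMM and above 0 with library totals, while the distances between the arms and from the median (black dashes) differ little between these scalings, and miR-28-3p is the lowest of the 4 throughout. A change of scaling shifts all miRNAs nearly alike, so the likeness of these distances was fixed in advance.

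The most abundant member was miR-151a-5p, with 35986, 36171, 32965 and 25089 counts in NC replicates 1 to 4 and 28318, 21250, 23569 and 27647 counts in circSOD2-sh replicates 1 to 4. Its normalized CPM were 5520, 5569, 5621 and 5639 in NC and 4813, 3752, 4729 and 4918 in circSOD2-sh. The NC libraries lay close together and above all circSOD2-sh libraries, of which replicate 2 was the lowest. The level fell from 5587 ± 53.9 to 4553 ± 539.6 normalized CPM (SD, 4 libraries each). The log2 fold change was -0.30, with a standard error of 0.089 and an edgeR adjusted p of 0.0147. An exact two-sided permutation test gave p = 0.0286, which no comparison of 4 with 4 libraries can go below, and 60.3% of all miRNAs tested had groups without overlap, 31.8% with circSOD2-sh lower. Without circSOD2-sh replicate 2 the mean of this group was 4820 ± 94.2 normalized CPM (SD, n = 3), and the log2 fold change was -0.32 (adjusted p = 0.00154 from edgeR). It was -0.44, -0.46 and -0.45 without circSOD2-sh replicate 1, 3 or 4. The median of all miRNAs also moved in these fits. Relative to it the changes of miR-151a-5p were -0.34, -0.36 and -0.36, against -0.29 in the main fit. With known miRNAs alone in the fit the log2 fold change was -0.24 and no longer passed (adjusted p = 0.0828 from edgeR). By rank among known miRNAs, miR-151a-5p moved from 19 or 20 in NC to 27 or 28 in circSOD2-sh.

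Its partner strand miR-151a-3p had 21007, 22127, 20329 and 13785 counts in NC and 14891, 14874, 14028 and 15526 counts in circSOD2-sh. These were 3222, 3406, 3467 and 3098 normalized CPM in NC and 2531, 2626, 2815 and 2762 in circSOD2-sh. Again no library of one group reached into the other. The level fell from 3298 ± 169 to 2683 ± 129 normalized CPM (SD, 4 libraries each), or by 0.30 on the log2 scale with a standard error of 0.068 (edgeR adjusted p = 0.00341, exact permutation p = 0.0286). Without circSOD2-sh replicate 3 the log2 fold change was -0.47. Relative to the median of all miRNAs it was -0.37 in that fit, against -0.30 in the main fit.

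A further entry of the table, miR-151b, is a miRNA of a separate hairpin on chromosome 14 (MIR151B, from 100109419 to 100109514 on the minus strand). Its mature form is nearly identical to miR-151a-5p, and its counts followed those of miR-151a-5p in every library, at 98.3% to 98.6% of them in NC libraries and 98.0% to 98.5% of them under circSOD2-sh. The entry held 348 to 557 counts fewer than miR-151a-5p. Its normalized CPM were 5503 ± 53.1 in NC and 4472 ± 535 in circSOD2-sh (SD, n = 4 each), with the same log2 fold change of -0.30 (adjusted p = 0.0143 from edgeR). Among 190 known miRNAs with at least 100 counts in each library, 2 pairs had counts within 5% of each other in all 8 libraries, which were this pair and miR-365a-3p with miR-365b-3p. The counts of miR-365a-3p and miR-365b-3p were identical in every library. Whether the same reads were counted in both entries was not tested, and miR-151b is given no weight of its own here. The RefSeq hairpin of miR-151b holds the letters aggagcu, the seed of miR-708-5p, which 1.47% of 1560 hairpins hold on the strand of the miRNA. Their place in the mature miRNA was not examined, so a seed shared with miR-708-5p does not follow.

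**Figure D2:**
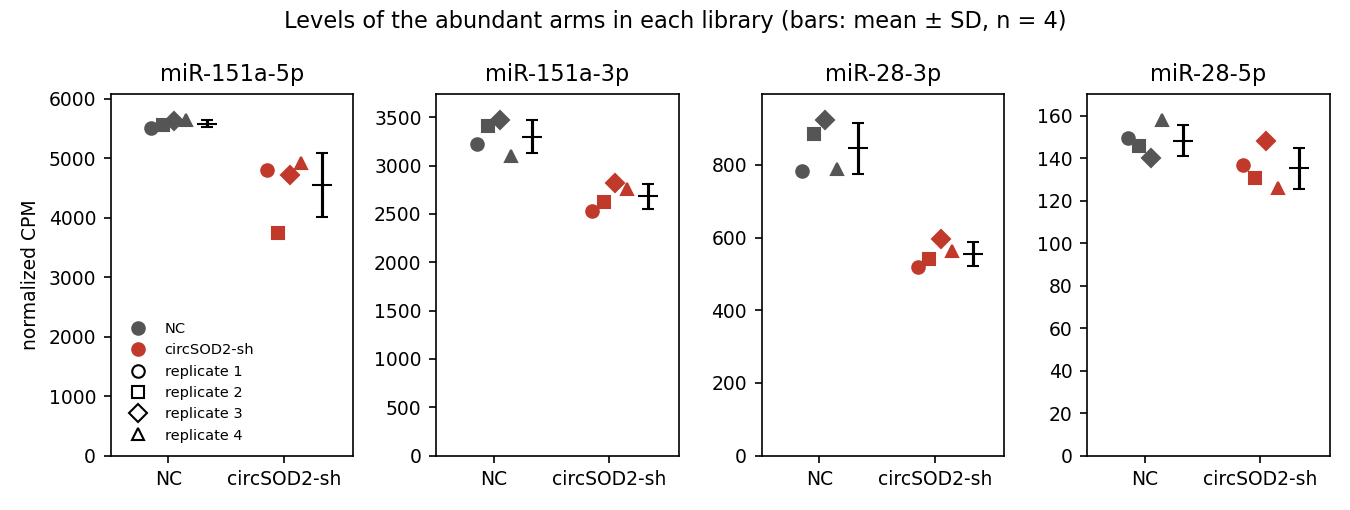
Normalized CPM (vertical axes, each starting at 0) of the 4 abundant arms in each NC (grey) and circSOD2-sh (red) library, with one marker shape per replicate number and the mean ± SD of each group (n = 4). The groups are apart for miR-151a-5p, miR-151a-3p and miR-28-3p and overlap for miR-28-5p, and circSOD2-sh replicate 2 is the lowest point of miR-151a-5p at 3752.

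The hairpin miR-28 gave most of its reads from the 3p arm. The counts of miR-28-3p were 5113, 5746, 5410 and 3513 in NC and 3061, 3069, 2972 and 3168 in circSOD2-sh. In normalized CPM they were 784, 885, 923 and 790 in NC and 520, 542, 596 and 563 in circSOD2-sh. Every NC library was higher than every circSOD2-sh library, and the gap between the groups was wider than the spread within either. The level fell from 845 ± 69.1 to 555 ± 32.5 normalized CPM (SD, 4 libraries each), or by 0.61 on the log2 scale with a standard error of 0.085 (edgeR adjusted p = 0.00014, exact permutation p = 0.0286). With each library left out in turn the log2 fold change lay between -0.80 and -0.61, and all 8 fits had an adjusted p-value under 0.05. The value of -0.80 came without circSOD2-sh replicate 3, where the distance from the median of all miRNAs was -0.69.

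The 5p arm, miR-28-5p, had 973, 947, 822 and 702 counts in NC and 805, 739, 738 and 707 counts in circSOD2-sh. Its normalized CPM were 149, 146, 140.2 and 158 in NC and 137, 130.5, 148 and 126 in circSOD2-sh. The groups overlapped, since circSOD2-sh replicate 3 lay among the NC libraries. The means were 148 ± 7.37 and 135 ± 9.67 normalized CPM (SD, 4 libraries each). The log2 fold change of -0.13 had a standard error of 0.092 (edgeR adjusted p = 0.235, exact permutation p = 0.0857) and an approximate 95% interval from -0.31 to 0.049. Without circSOD2-sh replicate 3 the log2 fold change was -0.33 and passed (adjusted p = 0.0199 from edgeR). With circSOD2-sh replicate 2 as TMM reference it was -0.26 and also passed (adjusted p = 0.0285 from edgeR). Relative to the median of all miRNAs these changes were -0.23 and -0.13, against -0.13 in the main fit.

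A ratio of arms within a library does not depend on the scaling of libraries, apart from a small constant added to each arm. There were 5.25, 6.07, 6.58 and 5.00 reads of miR-28-3p per read of miR-28-5p in NC replicates 1 to 4 and 3.80, 4.15, 4.03 and 4.48 in circSOD2-sh replicates 1 to 4. The excess of the 3p arm was thus smaller in every circSOD2-sh library than in any NC library. The log2 ratio of 5p to 3p rose by 0.47 (standard error 0.13, adjusted p = 0.0113 from limma, exact permutation p = 0.0286), or 1.39-fold. It passed with each library left out in turn, from 0.40 to 0.53. Among the 117 hairpins with both arms tested, 58.1% changed their arm ratio at the same threshold, 30.8% towards 5p and 27.4% towards 3p, and 55.6% had groups without overlap. The median absolute change was 0.601, and 69 hairpins, with miR-28 itself counted, changed at least as much as miR-28.

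For miR-151a there were 1.71, 1.63, 1.62 and 1.82 reads of the 5p arm per read of the 3p arm in NC and 1.90, 1.43, 1.68 and 1.78 in circSOD2-sh. The circSOD2-sh libraries enclosed the NC libraries on both sides, with replicate 2 lowest. The log2 ratio differed by -0.0060 (standard error 0.13, adjusted p = 0.972 from limma), with an approximate 95% interval from -0.25 to 0.24, or 0.838-fold to 1.18-fold. It was 0.074 without circSOD2-sh replicate 2 and 0.028 without NC replicate 4. Of the 117 hairpins it had the smallest absolute change, which was looked up after the values were seen. The hairpins were also set side by side, as a description without a test, because this pair was chosen after the values were seen. The log2 arm ratio of miR-28 minus that of miR-151a was -3.27 ± 0.115 in NC and -2.79 ± 0.179 in circSOD2-sh (SD, n = 4 each), without overlap. There were 3.76 to 4.11 reads of miR-151a-3p per read of miR-28-3p in NC libraries and 4.72 to 4.90 in those of circSOD2-sh. The ratio of miR-151a-5p to miR-28-5p overlapped between the groups, from 35.7 to 40.1 in NC and from 28.8 to 39.1 in circSOD2-sh.

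**Figure D3:**
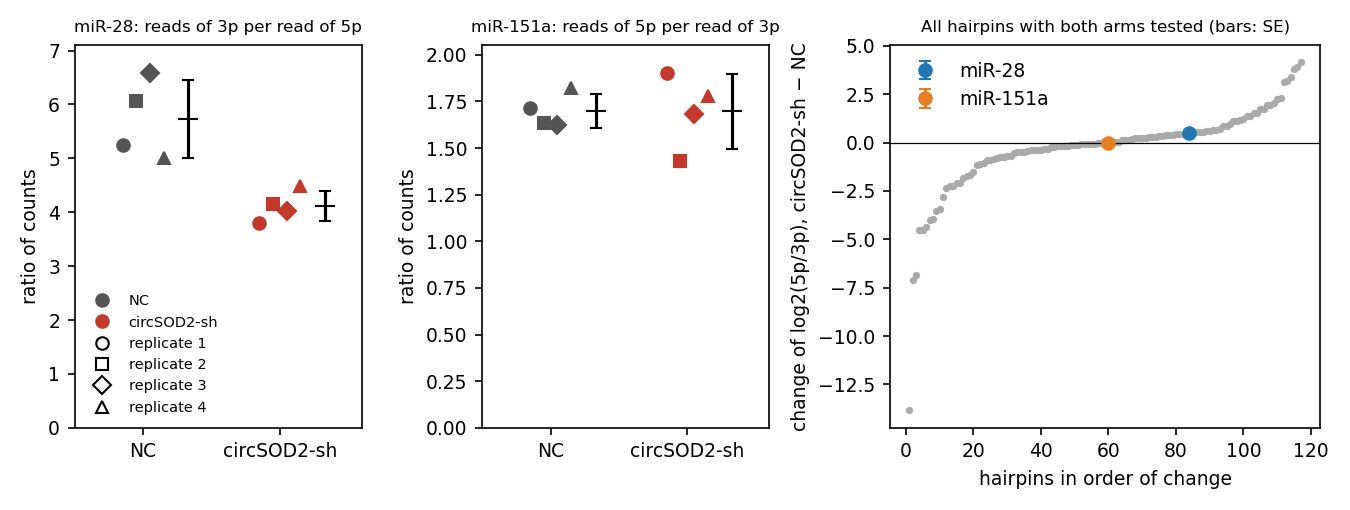
Ratio of raw counts between the arms of miR-28 (left) and miR-151a (middle) in each library, with mean ± SD of each group (n = 4, axes from 0), and the change of log2(5p/3p) for all 117 hairpins with both arms tested in order of size (right, with standard errors for the coloured points, which are smaller than the points). The miR-28 ratio is 5.00 to 6.58 in NC libraries and 3.80 to 4.48 in those of circSOD2-sh, the miR-151a ratios overlap, and both hairpins lie in the flat middle part of the order.

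Both arms of miR-708 were scarce in most libraries. The counts of miR-708-5p were 14, 8, 12 and 10 in NC and 15, 74, 6 and 13 in circSOD2-sh. Its normalized CPM were 2.15, 1.23, 2.05 and 2.25 in NC and 2.55, 13.1, 1.20 and 2.31 in circSOD2-sh. Apart from circSOD2-sh replicate 2 the groups overlapped fully, and the 95% Poisson interval of that library, 10.3 to 16.4, lay above those of the others, the highest of which reached 4.20. Such intervals include counting error alone, as PCR copies of a molecule are counted as separate reads. The counts of miR-708-3p were 0, 2, 2 and 2 in NC and 0, 42, 1 and 2 in circSOD2-sh. The 42 counts of circSOD2-sh replicate 2 were 7.42 normalized CPM, and a count of 3, taken as the floor, corresponds to 0.460 to 0.674 normalized CPM in these libraries, so that the arm was at or under the floor in the other 7 libraries.

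This single library held 48.7% of all counts of miR-708-5p and 82.4% of all counts of miR-708-3p, but 9.20% to 11.5% of those of the 4 other members. Its level of miR-708-5p was 5.65 times the median of the remaining libraries of its group. Of 557 known miRNAs with at least 5 counts expected in this library from the others, 20 were raised there by at least as much and 51 were over 2 times higher. Both numbers include miR-708-5p itself. Of the neural miRNAs, all 3 were raised in the same library, with hsa-miR-124-3p at 3217 normalized CPM, and their part in the surplus of miR-708 was not tested. Neither arm of miR-708 passed the low-count filter. In a fit with no such filter miR-708-5p was 1.29 higher in circSOD2-sh on the log2 scale, with a standard error of 0.51 (edgeR adjusted p = 0.0752). This value was 0.08 without circSOD2-sh replicate 2 (adjusted p = 0.898 from edgeR). It passed the threshold without NC replicate 4 (1.37) or without circSOD2-sh replicate 1 (1.44), 3 (1.55) or 4 (1.52). Without that library the group means were 2.02 ± 0.718 normalized CPM in circSOD2-sh (SD, n = 3) and 1.92 ± 0.465 in NC (SD, n = 4). In the same fit the log2 fold change of miR-708-3p was 2.81 (adjusted p = 0.0436 from edgeR), and it was -0.49 without circSOD2-sh replicate 2 (adjusted p = 0.791 from edgeR), from counts at or under the floor. With library totals in that fit, miR-708-5p was at 2.26 and passed (adjusted p = 0.000169 from edgeR), and miR-708-3p was at 3.74. With TMM, miR-708-3p also missed the threshold without NC replicate 1 (2.38), 2 (2.92) or 3 (2.94).

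**Figure D4:**
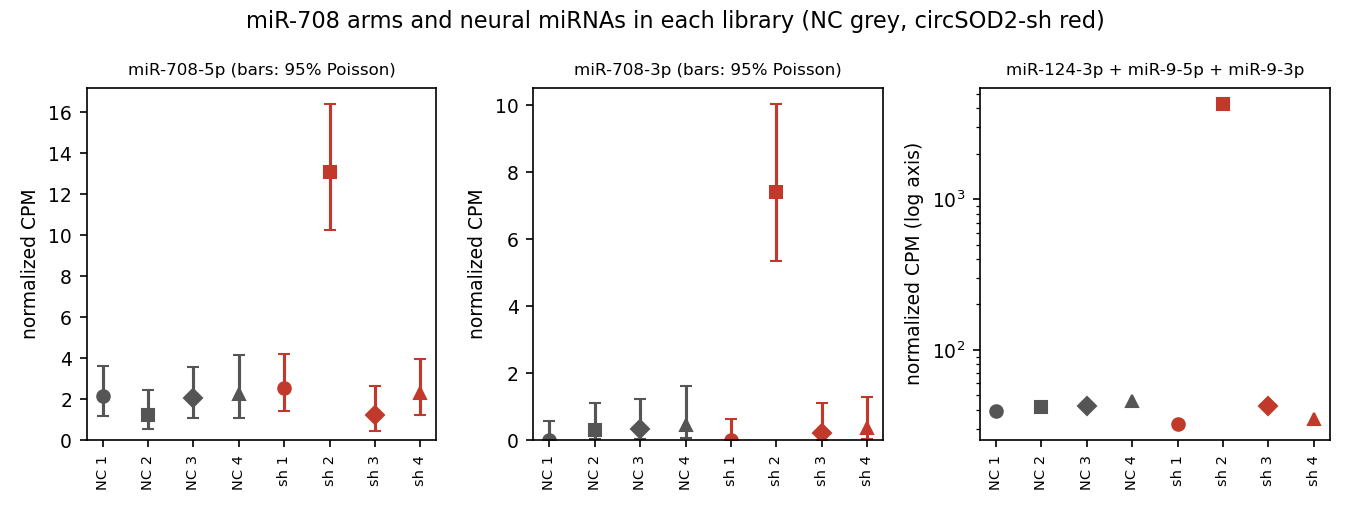
Normalized CPM of miR-708-5p (left) and miR-708-3p (middle) in each library with 95% Poisson intervals, and the summed normalized CPM of miR-124-3p, miR-9-5p and miR-9-3p on a log axis (right). In circSOD2-sh replicate 2 (red square) the values are 13.1, 7.42 and 4316, whereas the other 7 libraries lie at or below 2.55, 0.45 and 45.6.

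Since miR-28-5p and miR-708-5p share a seed, their reads can be added to give the reads of that seed. The sum was 151.4, 147, 142 and 160.0 normalized CPM in NC and 139, 144, 149 and 128 in circSOD2-sh, so the groups overlapped. The share of miR-708-5p in it was 0.838% to 1.44% in NC and 0.806%, 1.81% and 1.83% in 3 circSOD2-sh libraries, and it was 9.10% in circSOD2-sh replicate 2. The seed was thus read almost wholly from miR-28-5p in these cells. Taken over all 6 members, the family held 1.78% to 1.89% of the counts of known miRNAs in NC and 0.987% to 1.25% in circSOD2-sh, and miR-151a-5p alone held 53.1% to 60.1% of the family in every library. The share of known counts is a further scaling of the libraries, and its difference between the groups was not tested. Known miRNAs made up a much larger part of all counts in circSOD2-sh than in NC.

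The circle of SOD2 exons 5, 6 and 7 that the study describes has 462 bases in GENCODE release 29, and both published shRNA sequences were found across its junction. It was searched for the complement of bases 2 to 8 and of bases 2 to 7 of the 3 mature sequences printed above, on the strand of the circle and across the junction. No copy of either was found for miR-28-3p, miR-708-5p or miR-708-3p. The search did not include miR-28-5p or the arms of miR-151a. Of 2370 mature miRNAs in the table, 2.95% had a match of bases 2 to 8 and 11.6% a match of bases 2 to 7.

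By likeness of their levels over the 8 libraries, miR-28-3p went with miR-30e-3p (Pearson's r = 0.998) and miR-320b (r = 0.983), out of 282 known miRNAs compared. The same miR-30e-3p was also the most like miR-151a-3p (r = 0.982), followed by miR-181b-5p (r = 0.971). For miR-151a-5p these were miR-151b and miR-31-5p (r = 0.980). For miR-28-5p they were miR-641 (r = 0.932) and miR-24-3p (r = 0.821). The libraries share their groups, so that any miRNA that fell by a similar amount has a high value, and miR-30e-3p fell by 0.50 on the log2 scale (adjusted p = 0.000253 from edgeR), from 678 ± 38.2 to 478 ± 23.2 normalized CPM (SD, n = 4 each).

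The family was set beside 3 lists of other miRNAs. Of miRNAs described elsewhere as raised in clear cell renal carcinoma, 5 of 6 tested were lower and none higher in circSOD2-sh with TMM, where 32.4% of all miRNAs tested were lower, with a median log2 fold change of -0.57 against -0.0021 over all miRNAs tested. These included miR-34a-5p, which p53 induces, at -2.38 (adjusted p = 8.94e-05 from edgeR), miR-122-5p at -1.20 (adjusted p = 0.00211 from edgeR), miR-224-5p at -0.61 and miR-210-3p, the miRNA induced by hypoxia, at -0.54 (adjusted p = 0.0150 from edgeR). Counts were low for miR-122-5p, with 8 to 38 per library, and went down to 10 for miR-34a-5p. With library totals 3 of the 6 were higher and 1 was lower, and miR-210-3p was at 0.43. Of miRNAs described as lowered in this cancer, 2 of 4 tested were higher and 2 lower. The median of -0.62 turned positive when any circSOD2-sh library was left out (0.057 to 0.18), where miR-204-5p also entered the fit, and was 0.22 with no low-count filter and 0.34 with library totals. The former were miR-30c-5p at 3.34 (adjusted p = 1.35e-07 from edgeR) and miR-30a-5p at 0.25 (adjusted p = 0.0350 from edgeR), and the latter were the epithelial miRNAs miR-141-3p at -2.35 (adjusted p = 0.00348 from edgeR) and miR-200c-3p at -1.50. The call of miR-30a-5p was lost with DESeq2, with RLE size factors, with no filter, with each other TMM reference and without any single library but NC replicate 3, down to 0.057 without circSOD2-sh replicate 3 (adjusted p = 0.687 from edgeR). Without NC replicate 4, which had the highest stromal and kidney tubule sums, miR-200c-3p was at -0.91 and miR-141-3p at -1.73. The lowest count of miR-141-3p in any library was 6. Of other miRNAs described as derived from LINE-2 elements, 3 of 5 tested were lower, beside 32.4% of all, and none higher, with a median of -0.33. They were miR-374a-5p at -0.41, miR-421 at -0.36 and miR-374b-5p at -0.28, whose call (adjusted p = 0.0390 from edgeR) was lost with no filter, with a mean of at least 50 counts and without NC replicate 3. The 5 tested were both arms of miR-374a and of miR-374b, with miR-421, so arms of the same hairpin were counted separately. The arms of miR-95 had at most 4 counts in any library and were not tested in the main fit. The count therefore does not describe miRNAs derived from LINE-2 elements as a class. The number lower was 1 with no filter, 2 with that mean or without NC replicate 3, and 5 with DESeq2 or without circSOD2-sh replicate 2 or 3. With library totals all 5 were higher, as were the 4 tested arms of miR-28 and miR-151a and 613 of all 895 miRNAs.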

How the data were processed

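Small RNA of 4 NC and 4 circSOD2-sh libraries of 786-O cells was analysed. The deposited counts are raw reads assigned to each mature miRNA, and the CPM deposited by the authors divide by a total larger than the listed counts. A table of their own comparison (mean CPM, log2 fold changes, p-values) was not used. The submitters' processing notes name FastQC 0.11.2, Trimmomatic 0.36, Bowtie 1.1.1 and GRCh38. The counting tool is not given in the sources used here.

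The count model was edgeR 4.0.16 in R 4.3.3 (filterByExpr with a minimum count of 10, TMM, quasi-likelihood test, prior count 0.125, Benjamini-Hochberg adjustment, threshold 0.05). Log2 arm ratios, after adding 0.5 normalized CPM to each arm, were tested with limma 3.58.1. Exact permutation tests used log2 of normalized CPM plus 1 in Python 3.11.15 with scipy 1.17.1. Alternatives were DESeq2 1.42.0, other scalings, filters, prior counts, limma on log2 of the deposited CPM, the replicate block and left-out libraries. The fit without miR-151b, other TMM references and the fits of miR-708 with no filter were added after the data were seen. Fits were tested on simulated data in which changes went in either direction at random, so that test does not bear on the choice of scaling. The members, lists and tests were chosen with earlier results of these data known. The miRNAs named are the members, miR-151b, the lists with up to 4 called examples each, and the 2 known miRNAs most like each tested member. Total counts were between 3743860 and 9245044 per library. All pairs of replicates differed by more than sampling noise.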

Additional observations from a re-analysis of the deposited data

Results flagged for a closer look

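In 28 groups of 4 libraries examined, 6 had a library far from the other 3, where chance gives about 1.4. In 5 of the 6 that library was circSOD2-sh replicate 2. It had 3752 normalized CPM of miR-151a-5p where the rest of its group had 4729 to 4918, and 3678 of miR-151b, whose counts follow those of miR-151a-5p, against 4640 to 4832. It had 13.1 normalized CPM of miR-708-5p against 1.20 to 2.55 and 7.42 of miR-708-3p against 0 to 0.356. The share of miR-708-5p in the reads of its seed was 9.10% there against 0.806% to 1.83%. In NC replicate 2 this share was 0.838% against 1.40% to 1.44%, from 8 counts.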

How the results depend on the processing

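Alternatives that scale to library totals or to deposited CPM turned the direction of the 4 tested arms. The log2 fold changes of miR-28-5p, miR-28-3p, miR-151a-5p and miR-151a-3p were 0.84, 0.36, 0.68 and 0.67 with library totals, 0.72, 0.24, 0.56 and 0.54 with upper-quartile scaling, 0.69, 0.22, 0.52 and 0.53 with limma on log2(CPM + 1), and 0.69, 0.22, 0.52 and 0.53 with limma on log2(CPM + 0.1). Under these the number of members lower went from 3 to 0 and the number higher from 0 to 4, or to 3 with upper-quartile scaling, where the median of all miRNAs moved to 0.834. Over all miRNAs tested, 613 were higher and 158 lower with library totals, 570 and 160 with upper-quartile scaling, and 298 and 290 with TMM, so that 79.5%, 78.1% and 50.7% of calls were higher. The limma fits gave 561 and 163 with the constant of 1, and 558 and 163 with 0.1. Fewer miRNAs enter with a mean of at least 50 counts, with 149 higher and 212 lower, or with known miRNAs alone, with 123 and 123. With that mean, miR-28-5p lay 0.10 above the median of all miRNAs, and miR-151a-5p and miR-151a-3p lay at -0.060 and -0.064 from it. In 28 of 29 fits miR-28-5p was below the median, but fits that differ in scaling alone have to give nearly the same distance. With no low-count filter 1 member was higher, miR-708-3p, which rests on circSOD2-sh replicate 2. For miR-151a-5p the fit of known miRNAs alone gave -0.24 (adjusted p = 0.0828 from edgeR). For miR-28-5p the change passed at -0.26 with circSOD2-sh replicate 2 as TMM reference, where the median of all miRNAs was -0.133. With each library left out in turn, the log2 fold change lay between -0.33 and -0.15 for miR-28-5p, -0.80 and -0.61 for miR-28-3p, -0.46 and -0.32 for miR-151a-5p and -0.47 and -0.32 for miR-151a-3p, and the number of members lower was 3, or 4 without circSOD2-sh replicate 3. In the fits without 1 circSOD2-sh library the median of all miRNAs was -0.145 to -0.092, against -0.0021 in the main fit. Part of the larger falls there was thus a shift of all miRNAs. The change of arm ratio of miR-151a lay between -0.063 and 0.074, and it was 0.11 without NC replicate 4 and circSOD2-sh replicate 2. With no filter and each library left out, miR-708-5p lay between 0.08 and 1.55 and miR-708-3p between -0.49 and 3.16, and miR-708-3p was at -0.22 without both of these libraries. With library totals they were at 2.26 and 3.74.

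Replicate numbers were not used as pairs in the main fit. Deviations from the group means of same-numbered libraries correlated at 0.26, -0.099, 0.096 and -0.17. For NC replicates 1 and 3 the same-numbered circSOD2-sh library had the highest correlation, and for 2 and 4 another had. These values cannot show whether the libraries were paired. With the replicate block the log2 fold changes were -0.13, -0.60, -0.30 and -0.30 in the order above, and 3 members were lower. The arm ratio of miR-28 kept 0.47 with the block (adjusted p = 0.0326 from limma), and the block changed no call of the members or arm ratios. Of the miRNAs raised in ccRCC, 4 in place of 5 were lower with the block, as miR-155-5p went from an adjusted p of 0.0197 to 0.0529 (edgeR). Of the alternative values of the tested members, their numbers and their arm ratios, 161 kept their direction and side of the threshold (counts within 1.5 times), 19 reversed, 9 moved, 2 came to pass and 1 no longer passed. Depth limits miR-708, with 0 to 15 counts per arm in 7 libraries, and nothing can be said there about changes of the size seen for miR-28 and miR-151a.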
